A study of Sus scrofa with 8 samples.

Results

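The 8 genes described here encode proteins that skeletal muscle secretes. These proteins act on the muscle itself, on its vessels and matrix, or on other organs. SPARC and FSTL1 are matrix-associated factors, VEGFA and VEGFB are vascular ligands, and ANGPTL4 is a lipase inhibitor. METRNL is a factor described in mice as induced by exercise and cold, FNDC5 is the irisin precursor and IL15 is a cytokine. All 8 genes were taken from the deposited gene table by symbol, which found 8 of 8 among 23235 genes. That rule uses symbols and no measured value, but the list of symbols was chosen with earlier results of these data known.

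The RNA came from the longissimus dorsi, the long muscle of the back, of weaned Duroc x Landrace x Yorkshire piglets that started at 28 days of age. Piglets of the melatonin group were gavaged every morning with melatonin, the pineal hormone of darkness, at 5 mg per kg body weight in 10 mL of sterile saline. Control piglets received the saline alone. Both groups ate the same basal diet, had 5 days of adaptation and were dosed for 23 days, with 6 piglets per group in the study and 4 melatonin and 4 control libraries sequenced. The labels number the replicates and say no more about them, so the p-values measure the spread between these libraries, which may be partly technical.

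Secreted muscle factors, often called myokines, are made in the fibres or in the cells between them and reach their receptors through the tissue fluid or the blood. SPARC and FSTL1 belong to one protein family and are products mainly of connective tissue cells. VEGFA, whose gene responds to low oxygen, signals to vessel cells through the receptors FLT1 and KDR, and VEGFB binds FLT1. ANGPTL4, a target of fatty acid sensing PPAR receptors, inhibits the lipoprotein lipase LPL.

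Total counts ran from 53471667 to 60629098 per library, and the common biological coefficient of variation was 28.0%. No 2 libraries were alike within sampling noise (lowest chi-square per degree of freedom 49.8). Markers of the labelled tissue were high throughout. The 8 myofibre markers found, of 10 listed, were summed in FPKM (fragments relative to gene length and sequencing depth). Their sums were 90380.5, 111856, 86517 and 110292 FPKM in melatonin replicates 1 to 4, against 102957 to 119785 FPKM in control libraries. Melatonin replicates 1 and 3 thus lay below every control. Melatonin replicates 1 and 3 stood apart from the other 6 libraries in connective tissue genes. The 10 fibroblast markers summed to 5173, 654, 1806 and 614 FPKM in melatonin replicates 1 to 4, against 860, 457, 554 and 588 FPKM in control replicates 1 to 4. The 8 tendon cell markers summed to 1030, 34.0, 404 and 22.3 FPKM in melatonin replicates 1 to 4, against 26.1, 20.7, 17.2 and 34.1 FPKM in control replicates 1 to 4. The tendon regulator SCX was at 0.896, 0.0302, 0.228 and 0 FPKM in melatonin replicates 1 to 4 and at 0 to 0.142 FPKM in controls. Log2 fold changes of genes that were highest in both of these libraries are given with and without them. Leaving out the libraries in which a gene was highest lowers its fold change by construction, so such a fall tests no cause.

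The 8 genes covered a wide span of levels, compared here as FPKM, which is scaled by length. SPARC was the highest and IL15 the lowest in all 8 libraries. VEGFB was second in 6 libraries, and FSTL1 took that place in melatonin replicates 1 and 3. ANGPTL4 followed VEGFA in 7 libraries and passed it only in melatonin replicate 1. FSTL1 and VEGFA exchanged places between libraries, as did METRNL and FNDC5, so those neighbours were not separated beyond their spread.

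**Figure D1:**
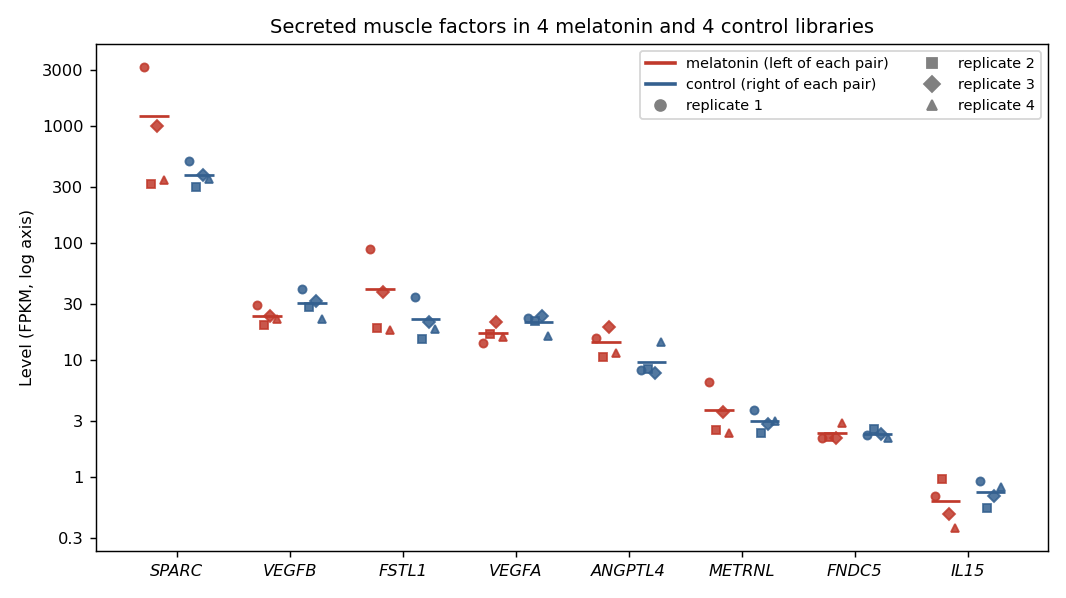
Level of each secreted factor in each library, as FPKM on a log axis, with the 4 melatonin libraries left of the 4 control libraries. The bars mark group means, and the points of both groups overlap for every gene, with melatonin replicate 1 far above the rest for SPARC at 3189 FPKM.

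None of the 8 genes passed the adjusted test. Counts were compared with edgeR's quasi-likelihood test on 9821 genes with a mean of at least 1 FPKM over the 8 libraries. Of the 8 genes, 7 met that level, and IL15 was read from the same test without the filter. Across all genes edgeR called 0 of 9821 at an adjusted p under 0.05 (0%; smallest adjusted p = 0.440), and DESeq2 called 65 (0.662%), none of them among the 8.

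At an unadjusted p under 0.05, 2 of the 8 genes passed in edgeR, SPARC higher and VEGFB lower in melatonin muscle. The same level was passed by 1032 of all genes tested (10.5%), 655 of them higher (6.67%) and 377 lower (3.84%). These shares are also the background for the counts in the gene lists below, for which no set test was run. The FPKM ranges of melatonin and control libraries did not overlap for 0 of the 8 genes, against 216 of all genes (2.20%). Over all genes the median log2 fold change was -0.0014.

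**Figure D2:**
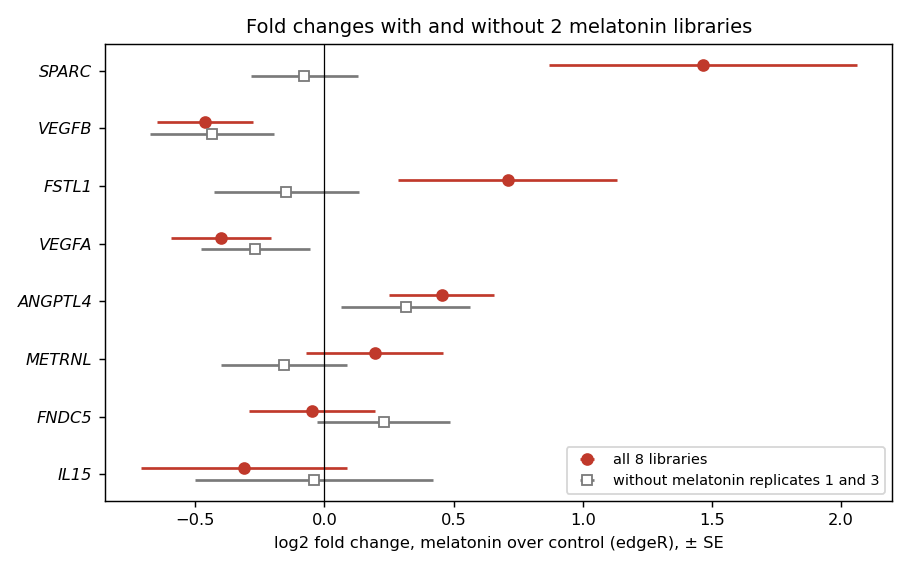
Log2 fold change, melatonin over control, with its standard error from edgeR, for all 8 libraries and without melatonin replicates 1 and 3. SPARC moved to -0.077 and FSTL1 to -0.15 without those libraries, while ANGPTL4 remained above 0 and VEGFA and VEGFB remained below 0.

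SPARC, a calcium-binding matrix glycoprotein that binds collagen, is encoded on chromosome 16 (ENSSSCG00000017082, plus strand, 71357586 to 71381161 in Sscrofa11.1, 2 annotated transcripts). It measured 3189, 319.8, 1003 and 344 FPKM in melatonin replicates 1 to 4, against 498, 298, 379 and 350.2 FPKM in control replicates 1 to 4. Melatonin replicates 1 and 3 lay above every control library, and replicates 2 and 4 lay within the control range. The means were 1214 ± 1354 FPKM in melatonin muscle and 382 ± 84.7 FPKM in control muscle (SD, n = 4 each), with 1.47 ± 0.60 for the log2 fold change (edgeR adjusted p = 0.460).

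The size of that difference was set by few libraries. Without melatonin replicate 1 the log2 fold change of SPARC was 0.44, and without melatonin replicates 1 and 3 it was -0.077, neither past an unadjusted p of 0.05 in edgeR. It also missed an unadjusted p of 0.05 without control replicate 2, 3 or 4, in DESeq2 and in limma. In rank, SPARC was the 16th most abundant gene of melatonin replicate 1 and the 38th of melatonin replicate 3, and lay between the 68th and 85th place in the other 6 libraries. The fibroblast marker sum was highest in the same 2 libraries, also with its collagens removed (1058, 238, 532 and 176 FPKM in melatonin replicates 1 to 4, against 153 to 251 FPKM in controls). DCN, also a matrix gene, gave 750 and 318 FPKM of it in melatonin replicates 1 and 3. LUM and COL3A1 were higher in control replicate 1 (29.5 and 443 FPKM) than in melatonin replicate 3 (18.8 and 361 FPKM). Each other fibroblast marker was highest in melatonin replicates 1 and 3. In bulk muscle, more cells of a type and more RNA per cell cannot be told apart, and the part of cell makeup in the SPARC values was not tested.

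FSTL1, a secreted glycoprotein of the follistatin family that muscle and heart release, is encoded on chromosome 13 (ENSSSCG00000039426, plus strand, 139847438 to 139901964, 4 transcripts). It measured 88.5, 19.0, 38.2 and 18.0 FPKM in melatonin replicates 1 to 4, against 34.8, 15.1, 21.1 and 18.4 FPKM in control replicates 1 to 4. Melatonin replicates 1 and 3 were again the highest, and control replicate 1 lay just below replicate 3 and above the remaining controls. The log2 fold change was 0.71 ± 0.42 (edgeR adjusted p = 0.554) and was 0.11 without melatonin replicate 1 and -0.15 without melatonin replicates 1 and 3.

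METRNL, a secreted factor described in mice as induced in muscle by exercise and in fat by cold, is encoded on chromosome 12 (ENSSSCG00000017137, minus strand, 228503 to 241496, 1 transcript). It measured 6.47, 2.55, 3.58 and 2.40 FPKM in melatonin replicates 1 to 4, against 3.77, 2.37, 2.86 and 2.99 FPKM in control replicates 1 to 4. Melatonin replicate 1 alone exceeded the control range. The log2 fold change was 0.20 ± 0.27 (edgeR adjusted p = 0.794), and it was -0.11 without melatonin replicate 1 and -0.16 without melatonin replicates 1 and 3. KIT, reported in mice as a METRNL receptor, measured 1.26 ± 0.415 FPKM in melatonin muscle and 1.26 ± 0.425 FPKM in control muscle.

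These 3 genes had the most similar profiles among the 8. Each profile was expressed as z-scores of log2(FPKM + 1) over the 8 libraries, so that a mean absolute difference of 0 marks the same shape. The difference was 0.150 between METRNL and FSTL1, 0.167 between SPARC and FSTL1 and 0.235 between METRNL and SPARC, and the next closest pair, VEGFA and VEGFB, differed by 0.699. Among 8915 genes compared, the closest to SPARC was FKBP10 (0.048), the closest to FSTL1 was ASPN (0.086) and the closest to METRNL was COL8A1 (0.080). All these points share the same 8 libraries, and melatonin replicate 1 carries most of the spread. Its z-scores were 2.18 for SPARC, 2.06 for FSTL1 and 2.16 for METRNL, against 0.76, 0.62 and 0.30 in melatonin replicate 3.

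**Figure D3:**
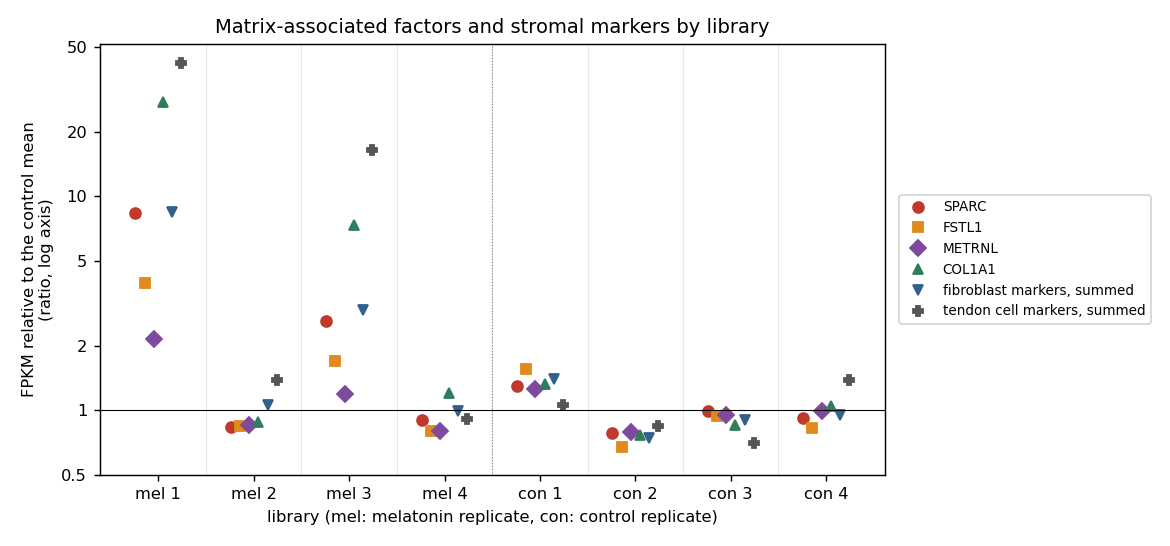
FPKM of SPARC, FSTL1, METRNL and COL1A1 and the summed FPKM of fibroblast and tendon cell markers in each library, as a ratio to the control mean on a log axis. Melatonin replicates 1 and 3 and control replicate 1 lie above 1 for all 6 series, and the other libraries scatter about 1. For METRNL, control replicate 1 (1.26) lies above melatonin replicate 3 (1.19).

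Among 21 matrix genes that SPARC binds or accompanies, 9 were higher and 0 lower in melatonin muscle at an unadjusted p under 0.05, and 18 had a log2 fold change above 0, with a median of 0.81. Once melatonin replicates 1 and 3 were left out, the median was -0.047. COL1A1, the main chain of type I collagen, measured 3457, 109.6, 913 and 151 FPKM in melatonin replicates 1 to 4, against 165, 95.5, 107 and 131 FPKM in control replicates 1 to 4. Its log2 fold change was 2.98 ± 0.90 (edgeR adjusted p = 0.440) and 0.19 without those 2 libraries. The others by the naming rule were COL1A2 (3.07), the matricellular TNC (3.52) and THBS1 (3.50), which had 0.11, -0.13 and 0.061 without those libraries. COL3A1, the type III collagen chain, differed less (0.41, edgeR adjusted p = 0.593, and 0.20 without those libraries).

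SPARC differed less than COL1A1 between libraries. The ratio of SPARC to COL1A1 in FPKM was 0.923, 2.92, 1.10 and 2.28 in melatonin replicates 1 to 4, against 3.02, 3.12, 3.55 and 2.67 in control replicates 1 to 4. The lowest ratios were in melatonin replicates 1 and 3, and melatonin replicate 2 lay within the control range. The log2 ratio averaged 0.69 ± 0.80 in melatonin muscle and 1.62 ± 0.17 in control muscle, a difference of -0.93 (two-sided exact permutation p = 0.0571, adjusted p = 0.171 over 3 ratios, where the smallest p is 0.0286). Without melatonin replicates 1 and 3 that difference was -0.25. In the wider SPARC and follistatin family, 1 of 10 tested genes was higher and 0 lower at an unadjusted p under 0.05, with a median of 0.40. That median was 0.085 once melatonin replicates 1 and 3 were left out. That gene was FST, the activin and myostatin antagonist, at 4.69 ± 1.42 FPKM in melatonin muscle and 3.01 ± 0.823 FPKM in control muscle (log2 fold change 0.54 ± 0.23, edgeR adjusted p = 0.463, and 0.39 without those libraries). SPARCL1, the nearest relative of SPARC, measured 59.9 ± 12.4 FPKM in melatonin muscle and 49.1 ± 9.18 FPKM in control muscle (0.20 ± 0.15, edgeR adjusted p = 0.630).

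VEGFB, a ligand of FLT1, is encoded on chromosome 2 (ENSSSCG00000054506, minus strand, 7872870 to 7876118, 1 transcript). It measured 29.6, 19.9, 23.6 and 22.4 FPKM in melatonin replicates 1 to 4, against 40.9, 28.3, 32.2 and 22.4 FPKM in control replicates 1 to 4. All 4 melatonin libraries lay below the control mean, and control replicates 2 and 4 lay within the melatonin range. The means were 23.9 ± 4.12 FPKM in melatonin muscle and 31.0 ± 7.77 FPKM in control muscle, with -0.46 ± 0.19 for the log2 fold change (edgeR adjusted p = 0.454; DESeq2 adjusted p = 0.331). The log2 fold change was -0.33 without control replicate 1 and -0.61 without control replicate 4. It no longer passed an unadjusted p of 0.05 in edgeR without control replicate 1, 2 or 3, without melatonin replicate 2 or 3, without melatonin replicates 1 and 3 together (-0.44) or at a filter of 5 FPKM, nor did it in limma.

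VEGFA, the main growth factor of capillaries, is encoded on chromosome 7 (ENSSSCG00000001695, plus strand, 38746475 to 38761366, 5 transcripts, which the gene-level counts do not separate). It measured 14.0, 16.8, 21.1 and 15.9 FPKM in melatonin replicates 1 to 4, against 22.7, 21.7, 23.8 and 16.1 FPKM in control replicates 1 to 4. In FPKM, control replicate 4 was again the low control, and melatonin replicate 3 the high melatonin library. On the TMM-scaled counts behind the edgeR fold change, control replicate 4 was also the low control. On that scale melatonin replicate 3 was not high, and melatonin replicate 1 lay below the other melatonin libraries, which were close together. The means were 16.9 ± 3.03 FPKM in melatonin muscle and 21.1 ± 3.43 FPKM in control muscle, with -0.40 ± 0.19 for the log2 fold change (edgeR adjusted p = 0.496). It did not pass an unadjusted p of 0.05 with all libraries, and did so without control replicate 4, at -0.53. The log2 fold change was -0.27 without melatonin replicate 1 and -0.44 without melatonin replicate 3.

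Both ligands had a negative log2 fold change in each of 16 alternative fits, from -0.53 to -0.27 for VEGFA and from -0.61 to -0.33 for VEGFB. The 16 fits share most of their libraries. The log2 ratio of VEGFA to VEGFB was -0.50 ± 0.42 in melatonin muscle and -0.54 ± 0.21 in control muscle (difference 0.039, two-sided exact permutation p = 0.886). Of 7 other ligands and receptors tested, 0 passed an unadjusted p of 0.05 in edgeR in either direction, and their median was 0.057. FLT1, the receptor of both ligands, measured 2.93 ± 0.407 FPKM in melatonin muscle and 2.47 ± 0.128 FPKM in control muscle (0.15 ± 0.14, and 0.20 without melatonin replicates 1 and 3). KDR, the main signalling receptor of VEGFA, measured 5.53 ± 2.10 FPKM in melatonin muscle and 5.59 ± 0.688 FPKM in control muscle (-0.12 ± 0.20). The co-receptors NRP1 and NRP2 had log2 fold changes of -0.19 and 0.081. The placental ligand PGF had -0.78 ± 0.51 (edgeR adjusted p = 0.579), with 5.33 FPKM in control replicate 4 and 0.982 to 1.66 FPKM in the other 7 libraries.

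**Figure D4:**
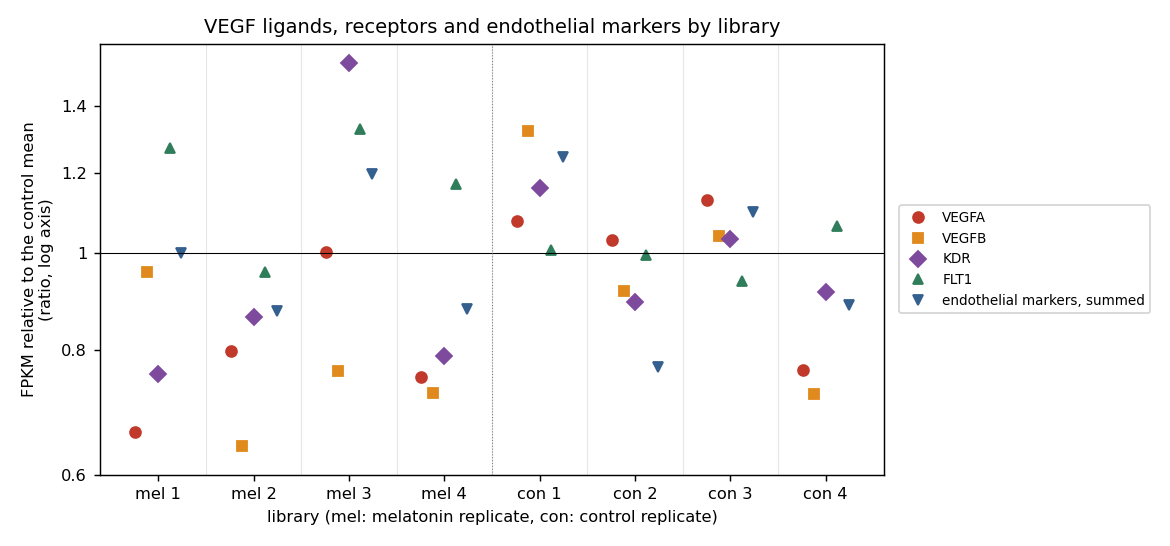
FPKM of VEGFA, VEGFB, KDR and FLT1 and the summed FPKM of endothelial markers in each library, as a ratio to the control mean on a log axis. VEGFB lies below 1 in all 4 melatonin libraries and in control replicates 2 and 4, while FLT1 lies clearly above 1 in melatonin replicates 1, 3 and 4 and slightly in control replicates 1 and 4.

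Of 11 endothelial markers listed, 10 were found, and their sum was 81.1, 71.0, 97.2 and 71.3 FPKM in melatonin replicates 1 to 4, against 101, 62.5, 89.2 and 72.0 FPKM in control replicates 1 to 4. The groups overlapped, with control replicate 1 highest and control replicate 2 lowest, and the part of vessel cells in the ligand values was not tested. Pericyte and smooth muscle markers summed to 43.4 to 69.1 FPKM in melatonin libraries and 48.8 to 78.3 FPKM in control libraries. HIF1A and EPAS1, the oxygen-sensing transcription factors upstream of VEGFA, had log2 fold changes of -0.16 ± 0.15 and 0.047 ± 0.14, and HIF1A had -0.33 without melatonin replicates 1 and 3. Of 22 tested hypoxia-related genes, 4 were higher and 1 lower at an unadjusted p under 0.05, with a median of -0.0074. The histone demethylase KDM3A measured 4.39 ± 0.989 FPKM in melatonin muscle and 2.83 ± 0.544 FPKM in control muscle (0.55 ± 0.16, edgeR adjusted p = 0.440), and was 0.55 without melatonin replicates 1 and 3 as well. The collagen hydroxylase P4HA1 (1.47) and the stress gene NDRG1 (0.98) moved to 0.27 and 0.30 without those libraries. PFKFB3, the remaining higher gene, had 2.03 ± 0.80 (edgeR adjusted p = 0.453), and 2.19 without those libraries. It measured 7.58, 47.3, 44.5 and 4.83 FPKM in melatonin replicates 1 to 4, against 2.17 to 13.5 FPKM in controls. Hexokinase HK2 measured 2.64 ± 1.24 FPKM in melatonin muscle and 4.75 ± 2.25 FPKM in control muscle (-0.94 ± 0.35, edgeR adjusted p = 0.451).

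ANGPTL4 is encoded on chromosome 2 (ENSSSCG00000013599, minus strand, 70904531 to 70912974, 1 transcript). It measured 15.6, 10.6, 19.2 and 11.5 FPKM in melatonin replicates 1 to 4, against 8.24, 8.38, 7.74 and 14.3 FPKM in control replicates 1 to 4. All 4 melatonin libraries lay above control replicates 1 to 3, and control replicate 4 lay among them. The means were 14.2 ± 3.96 FPKM in melatonin muscle and 9.66 ± 3.10 FPKM in control muscle, with 0.45 ± 0.20 for the log2 fold change (edgeR adjusted p = 0.475). Without control replicate 4 it was 0.67 ± 0.16, and it was positive in 16 of 16 alternative fits, from 0.31, without melatonin replicates 1 and 3, to 0.67. ANGPTL4 missed an unadjusted p of 0.05 with all libraries in edgeR, and passed it without control replicate 4, without melatonin replicate 2, at a filter of 5 FPKM, in limma and in DESeq2. No alternative passed the adjusted level.

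LPL, the lipase that ANGPTL4 inhibits, measured 36.9, 16.5, 62.5 and 11.7 FPKM in melatonin replicates 1 to 4, against 23.7, 9.32, 31.3 and 11.3 FPKM in control replicates 1 to 4. Its libraries spread more widely than those of ANGPTL4 within each group. The log2 fold change of LPL was 0.60 ± 0.47 (edgeR adjusted p = 0.640), and -0.30 without melatonin replicates 1 and 3. The log2 ratio of ANGPTL4 to LPL was -0.90 ± 0.73 in melatonin muscle and -0.84 ± 1.11 in control muscle (difference -0.060, two-sided exact permutation p = 0.886). Markers of adipocytes, which also make LPL, summed to 252, 84.2, 219.9 and 17.6 FPKM in melatonin replicates 1 to 4, against 45.8, 26.3, 142 and 39.2 FPKM in control replicates 1 to 4. Their part in the ANGPTL4 and LPL values was not tested. GPIHBP1, which holds LPL on capillary walls, had a log2 fold change of -0.26 ± 0.31.

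**Figure D5:**
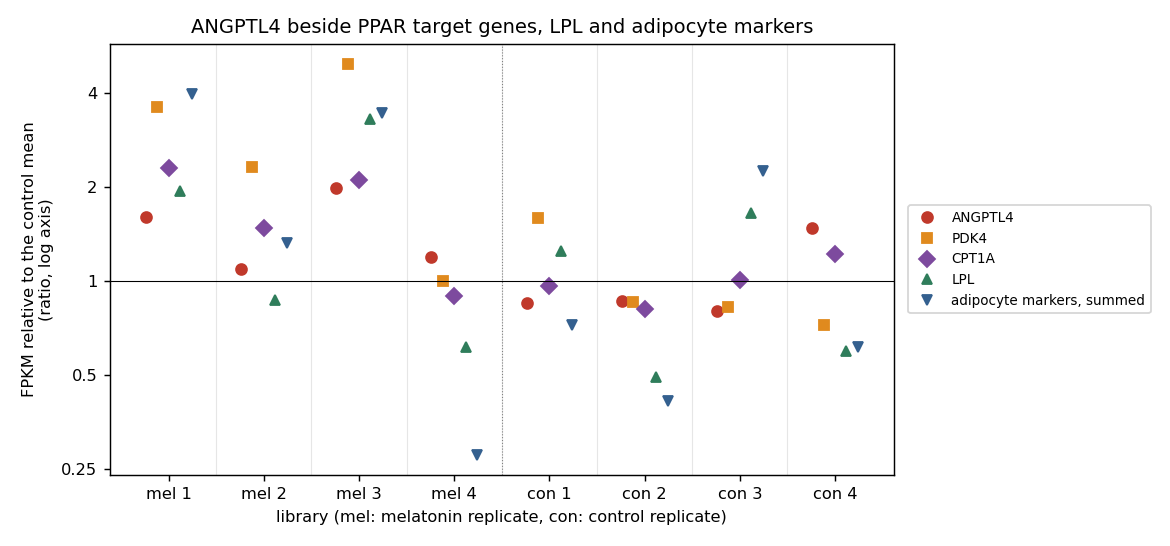
FPKM of ANGPTL4, genes of its pathway and the summed FPKM of adipocyte markers in each library, as a ratio to the control mean on a log axis. ANGPTL4 lies above 1 in all 4 melatonin libraries and in control replicate 4, and adipocyte markers lie above 1 in melatonin replicates 1, 2 and 3 and control replicate 3.

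Of 21 tested PPAR pathway genes, 2 were higher and 0 lower at an unadjusted p under 0.05, with a median of -0.038. Among all genes tested, 6.67% were higher and 3.84% lower at that level in edgeR. PDK4, the kinase that shuts off pyruvate dehydrogenase, measured 415, 267, 574 and 116 FPKM in melatonin replicates 1 to 4, against 184, 98.6, 95.0 and 83.5 FPKM in control replicates 1 to 4. In PDK4, 3 of the 4 melatonin libraries exceeded every control, and control replicate 4, the highest control for ANGPTL4, was the lowest for PDK4. For PDK4 the log2 fold change came to 1.41 ± 0.39 (edgeR adjusted p = 0.440; DESeq2 adjusted p = 0.0323), and 0.83 without melatonin replicates 1 and 3. CPT1A, which admits fatty acids to mitochondria, measured 6.98 ± 2.63 FPKM in melatonin muscle and 4.10 ± 0.692 FPKM in control muscle (0.64 ± 0.19, edgeR adjusted p = 0.440), and its log2 fold change was 0.36 without those libraries. The receptor PPARD had -0.058 ± 0.17.

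Of 8 tested genes of the LPL system, LPL included, 1 was higher and 0 lower at an unadjusted p under 0.05, with a median of 0.18. This was PCSK6, a proprotein convertase, at 3.44 ± 1.23 FPKM in melatonin muscle and 1.68 ± 0.336 FPKM in control muscle (0.91 ± 0.20, edgeR adjusted p = 0.440; DESeq2 adjusted p = 0.0199), or 0.66 without melatonin replicates 1 and 3. Of the 4 tested relatives of ANGPTL4, 2 were higher and 0 lower at an unadjusted p under 0.05. ANGPTL7 measured 161, 0.419, 15.3 and 0 FPKM in melatonin replicates 1 to 4, against 0.373 to 0.495 FPKM in controls. ANGPTL5 measured 14.1, 0.118, 4.70 and 0 FPKM in melatonin replicates 1 to 4, against 0 to 0.265 FPKM in controls. Both were high in the 2 melatonin libraries with high tendon cell markers. The median of the 4 was 2.95 with all libraries and -0.51 without melatonin replicates 1 and 3.

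FNDC5, the membrane protein from which irisin is cleaved, is encoded on chromosome 6 (ENSSSCG00000025834, minus strand, 89163378 to 89171795, 2 transcripts). It measured 2.18, 2.20, 2.18 and 2.92 FPKM in melatonin replicates 1 to 4, against 2.27, 2.58, 2.36 and 2.15 FPKM in control replicates 1 to 4. The other 7 libraries lay within 2.15 to 2.58 FPKM, below melatonin replicate 4. The means were 2.37 ± 0.367 FPKM in melatonin muscle and 2.34 ± 0.182 FPKM in control muscle, while the log2 fold change on TMM-scaled counts was -0.047 ± 0.24 (edgeR adjusted p = 0.951). The sign thus differed between the scalings, and the difference was under the spread between libraries in both. The counts of 229 to 342 per library gave a counting error of at most 6.61%.

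Upstream of FNDC5, the coactivator PPARGC1A (PGC-1alpha), which drives FNDC5 in exercised mice, measured 1.15 ± 0.422 FPKM in melatonin muscle and 1.65 ± 0.227 FPKM in control muscle. Its log2 fold change was -0.64 ± 0.25 (edgeR adjusted p = 0.453). Its relative PPARGC1B measured 1.14 ± 0.409 FPKM in melatonin muscle and 2.14 ± 0.419 FPKM in control muscle (-0.96 ± 0.33, edgeR adjusted p = 0.441). The irisin receptor subunit ITGB5 measured 9.31 ± 3.19 FPKM in melatonin muscle and 5.62 ± 1.04 FPKM in control muscle (0.61 ± 0.17, edgeR adjusted p = 0.440), or 0.37 without melatonin replicates 1 and 3. Its partner ITGAV had 0.34 ± 0.17 (edgeR adjusted p = 0.507), and 0.085 without those libraries. In all, 3 of 11 tested genes around FNDC5 were higher and 2 lower at an unadjusted p under 0.05, with a median of 0.34. The others were the shedding protease ADAM10 (0.38, and 0.29 without melatonin replicates 1 and 3) and FNDC1 (2.63, and 0.035 without them).

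IL15, a cytokine that muscle secretes, is encoded on chromosome 8 (ENSSSCG00000009051, minus strand, 85667321 to 85677837, 2 transcripts). It measured 0.688, 0.958, 0.484 and 0.370 FPKM in melatonin replicates 1 to 4, against 0.922, 0.546, 0.691 and 0.818 FPKM in control replicates 1 to 4. Melatonin replicates 3 and 4 were the 2 lowest libraries, and melatonin replicate 2 was the highest. The log2 fold change was -0.31 ± 0.40 without the filter (edgeR adjusted p = 0.801). With 41 to 102 counts per library the counting error was at most 15.6%, below the coefficient of variation between libraries of 41.3% in melatonin muscle and 21.8% in control muscle.

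IL15RA, which presents IL15 to neighbouring cells, was listed at 0 in 5 of the 8 libraries and reached 0.775 FPKM in control replicate 3, so no ratio to IL15 was formed. The signalling chain IL2RB measured 0.368 ± 0.0744 FPKM in melatonin muscle and 0.548 ± 0.223 FPKM in control muscle, below the filter. The shared chain IL2RG had a log2 fold change of 0.0059. Lymphocyte markers summed to 3.82 to 6.95 FPKM in melatonin libraries and 2.73 to 6.28 FPKM in control libraries. Of 7 tested genes of IL15 signalling, 1 was higher and 1 lower at an unadjusted p under 0.05. The transcription factor STAT3 measured 13.7 ± 5.29 FPKM in melatonin muscle and 9.39 ± 0.755 FPKM in control muscle (0.42 ± 0.17, edgeR adjusted p = 0.461), or 0.16 without melatonin replicates 1 and 3. The cytokine feedback inhibitor CISH measured 1.32 to 7.96 FPKM in melatonin libraries and 2.95 to 32.8 FPKM in control libraries, the highest in control replicate 4 (-1.69 ± 0.75, edgeR adjusted p = 0.473).

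Among 12 other tested secreted factors of muscle, 2 were higher and 0 lower at an unadjusted p under 0.05, with a median of 0.090. FGF2, a growth factor for muscle stem cells and fibroblasts, measured 1.73, 0.989, 3.15 and 0.505 FPKM in melatonin replicates 1 to 4, against 0.486 to 0.581 FPKM in controls. All melatonin libraries but replicate 4 exceeded the controls (1.41 ± 0.39, edgeR adjusted p = 0.440; DESeq2 adjusted p = 0.0508). The value was 0.60 without melatonin replicates 1 and 3. PTN, a heparin-binding growth factor, had 1.66 ± 0.69 (edgeR adjusted p = 0.461), and 0.22 without melatonin replicates 1 and 3.

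The remaining 5 genes had their own nearest profiles in the filtered table. For ANGPTL4 these were KLHL2 (mean absolute z difference 0.151), STT3A (0.158) and SCAMP2 (0.220). For VEGFA the closest was GEMIN7 (0.218), for VEGFB IBTK (0.171) and for IL15 ADNP2 (0.248). FNDC5 had no close profile, with TMEM132A nearest at 0.400.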

How the data were processed

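Poly(A) RNA of longissimus dorsi was sequenced after melatonin or saline gavage, in 4 libraries per group. The deposited table holds, per the file headers, whole-number counts and FPKM (the authors' length- and depth-scaled values) per Ensembl gene. The submitters' processing notes name FastQC, StringTie, DESeq2 and the build Sscrofa11.1. Tool roles and versions, the aligner and the use of strand in counting are not stated in the sources used here.

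Deposited counts of 9821 genes with a mean of at least 1 FPKM were tested, melatonin against control, with the legacy form of edgeR's quasi-likelihood test (edgeR 4.0.16 under R 4.3.3), TMM factors, no covariate and Benjamini-Hochberg adjustment over all genes tested (threshold 0.05). IL15 was read from the fit without the filter. Ratios of FPKM were compared by an exact two-sided permutation test that used each of the 70 ways to assign libraries. The permutation test was run in Python 3.11.15 with NumPy 2.4.6. The main edgeR fit alone was tested on simulated counts.

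Genes named are the 8 members, fixed receptors and partners, up to 4 genes per list with the smallest unadjusted p under 0.05 (otherwise the 2 smallest) and the 3 nearest profiles per member, of which the closest are printed. Single cell type markers and PFKFB3, the remaining hypoxia-related gene higher at that level, are named as well. IL15RA was matched by its description. The members, lists, tests and alternatives were chosen with earlier results of these data known.

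Alternatives were median-of-ratios scaling, DESeq2 1.42.0, limma 3.58.1 on log2(FPKM + 1) and log2(FPKM + 0.1), no filter, a filter of 5 FPKM, a replicate block, each library left out and melatonin replicates 1 and 3 left out together. Counting errors cover counting only.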

Additional observations from a re-analysis of the deposited data

Results flagged for a closer look

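Of 22 groups of 4 libraries examined, all in FPKM or ratios of FPKM, 2 held a library far from the other 3. Chance gives such a group about 1 time in 20, so 2 of 22 is near that rate. FNDC5 was 2.92 FPKM in melatonin replicate 4, against 2.18 to 2.20 FPKM in the other 3 melatonin libraries. ANGPTL4 was 14.3 FPKM in control replicate 4, against 7.74 to 8.38 FPKM in the other 3 control libraries. Control replicate 4 was also the lowest control for VEGFA and VEGFB and the highest for PGF and CISH.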

How the results depend on the processing

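No member passed the adjusted level in any alternative, and ANGPTL4, VEGFA, VEGFB and IL15 kept their sign in all of theirs. Genes at an unadjusted p under 0.05 numbered 556 and 559 with limma at pseudocounts of 1 and 0.1, 1789 without a filter, 434 at a mean of 5 FPKM, 474 without melatonin replicates 1 and 3, and 568 (without melatonin replicate 3) to 1882 (without melatonin replicate 4) with 1 library left out. Genes past the adjusted level numbered 65 in DESeq2 and 0 to 15 with 1 library left out, the 15 without melatonin replicate 4. Members at an unadjusted p under 0.05 numbered 1 and 1 with limma, 0 without melatonin replicates 1 and 3, and 0 to 3 with 1 library left out. The labels state no pairing by replicate number, and the values showed no clear one. Deviations of same-numbered libraries correlated at 0.177, 0.0890, 0.139 and -0.0466, and 2 of 4 matched best with their own number. With so few libraries this check cannot exclude a pairing. With a replicate block 1 member passed an unadjusted p of 0.05 in edgeR, namely FSTL1 (0.54), while SPARC (0.94) and VEGFB (-0.44) did not. In that fit 1061 genes in all passed it, with 0 past the adjusted level. Without melatonin replicates 1 and 3, log2 fold changes were -0.077 for SPARC, -0.15 for FSTL1, -0.16 for METRNL and 0.23 for FNDC5, the ANGPTL4 to LPL difference was 0.51, and list medians were -0.51 (ANGPTL relatives), 0.085 (SPARC and follistatin family) and -0.047 (matrix genes). FNDC5 was 0.0069 and 0.0075 with limma. With 1 library left out, FNDC5 ran from -0.27 to 0.081, METRNL from -0.11 to 0.30, the VEGFA to VEGFB difference from -0.073 to 0.23 and the ANGPTL4 to LPL difference from -0.45 to 0.33. The cause of these shifts was not tested. IL15 had the fewest counts of the 8 genes, with a counting error of up to 15.6%.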
